A study of Mus musculus with 12 samples.

Results

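Interferon-stimulated genes and the genes of the immunoproteasome were followed in the regrowing skin of mice with and without Sox4. The group was a list of 35 genes: antiviral effectors, nucleic acid sensors, the transcription factors of the interferon response with its feedback inhibitor, guanylate-binding proteins, and genes that cut and deliver peptides for MHC class I. A member was read from array probes whose RefSeq transcript belonged to it, taking the probe with the highest mean. The list holds genes of known function in these pathways, and it was drawn up with earlier results of these data known, so the counts and medians of its members are descriptions. Of the 35 members, 32 were tested among 16183 genes in all, and each of the 32 was well above background on all 12 arrays. Oas3 had a probe that passed on too few arrays and was not tested. Mx1 and Mx2 had no probe matched to them and were not analysed here.

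Skin was taken from 12 male mice 12 days after plucking, and the RNA of each mouse was hybridised to its own 1-colour expression array. All mice had a mixed background of C57Bl6 and 129Sv. In the cKO mice Sox4 was deleted conditionally in skin, by a Cre driver that the labels do not name, and the WT mice were wild type. Sox4 is a transcription factor of the SoxC family, and the design text gives hair regeneration and the activation of hair follicle stem cells as the question. In the experiment named Exp 1 the mice were old: 3 cKO mice (numbered 2, 5 and 6) of 72, 72 and 68 weeks, and 3 WT mice (1, 2 and 3) of 72, 72 and 69 weeks. In Exp 2 they were young: 3 cKO mice (1, 3 and 4) of 17, 18 and 16 weeks, and 3 WT mice (4, 5 and 6) of 20, 19 and 18 weeks. Age and experiment cannot be told apart. Mouse numbers name animals within a genotype, so cKO 2 and WT 2 are different mice.

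Type I interferons signal through the receptor pair Ifnar1 and Ifnar2 to the kinases Jak1 and Tyk2, which activate a complex that holds Stat2 and Irf9. The complex binds interferon-stimulated response elements (ISRE) near the genes it induces. Interferon gamma acts through GAS elements, and it induces the catalytic subunits that replace their constitutive counterparts in the proteasome and the Tap1-Tap2 transporter, which carries peptides to MHC class I. In skin, keratinocytes, fibroblasts and immune cells can all respond to interferon, and the follicle is known for its low display of MHC class I during growth.

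Levels are log2 processed signals minus the 75th percentile of the same array, so a level of 0 is as bright as that percentile, and levels of different genes cannot be set against each other because each probe has its own response. Differences are log2 differences from a limma fit of 4 group means, with p-values adjusted by Benjamini-Hochberg over all 16183 genes, and a gene was called at an adjusted p under 0.05. Sox4 checked the labels. It averaged -3.40 ± 0.69 in cKO skin and 2.13 ± 0.19 in WT skin (SD, n = 6 each), and the groups did not overlap. Between 53.9% and 62.6% of probes were above background on an array. Whole skin holds many cell types, and more cells of a type cannot be told apart from more RNA per cell. The arrays fell on 3 slides. Slide 1 held 2 old cKO, 2 old WT, 1 young cKO and 1 young WT mouse, slide 2 held 1 old cKO, 1 old WT, 1 young cKO and 2 young WT mice, and slide 3 held 1 young cKO mouse. Values within a slide therefore rest on single mice in part and are given with no test.

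Most of the 32 members had a higher mean in cKO than in WT skin, in both experiments, by small amounts that no single member carried past the threshold. Averaged over the experiments, 30 of 32 differences (cKO minus WT) were positive, with a median of 0.39, against 42.3% of all genes and a median of -0.04 over all genes. In the mice of Exp 1, 26 of 32 were positive with a median of 0.39, and in those of Exp 2 30 of 32 with a median of 0.30. With the mean of skeletal muscle markers as a covariate these medians were 0.17 in Exp 1, with 20 positive, and 0.19 in Exp 2, with 28 positive. Median scaling gave 0.16 in Exp 2, and the authors' deposited table gave 0.47. Bst2, a tether that holds budding virus at the cell surface, and Ubd, a ubiquitin-like modifier, were the 2 members with a negative averaged difference. Genes of this kind share their inducers, so the 32 differences are not independent of each other.

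At the adjusted threshold 0 of 32 members were called in the averaged comparison, where 0.42% of all genes were called. The count was also 0 in Exp 1, against 0.117% of all genes, in Exp 2, against 0.0618%, and in the test of whether the genotype difference differed between the experiments, against 0.00618%. At an unadjusted p under 0.05, 14 members were higher in cKO skin in the averaged comparison, against 3.4% of all genes. In Exp 1, 11 members were higher at that level, against 4.26% of all genes, and 1 was lower, against 7.04%. In Exp 2 no member reached an unadjusted p of 0.05, against 4.67% of all genes in either direction (212 of 16183 genes higher and 543 lower).

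The cKO and WT mice of Exp 2 did not overlap, with cKO higher, for 11 members, against 2.71% of all genes. In Exp 1 that held for 8 members, against 5.66%. Over all 12 mice 1 member kept the genotypes apart, Usp18, against 0.0557% of all genes. The averaged median was 0.41 on slide 1 alone, with 27 members positive, and 0.39 on slide 2 alone, with 29 positive; the part of Exp 2 on slide 1 and that of Exp 1 on slide 2 were each 1 cKO against 1 WT mouse.

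**Figure D1:**
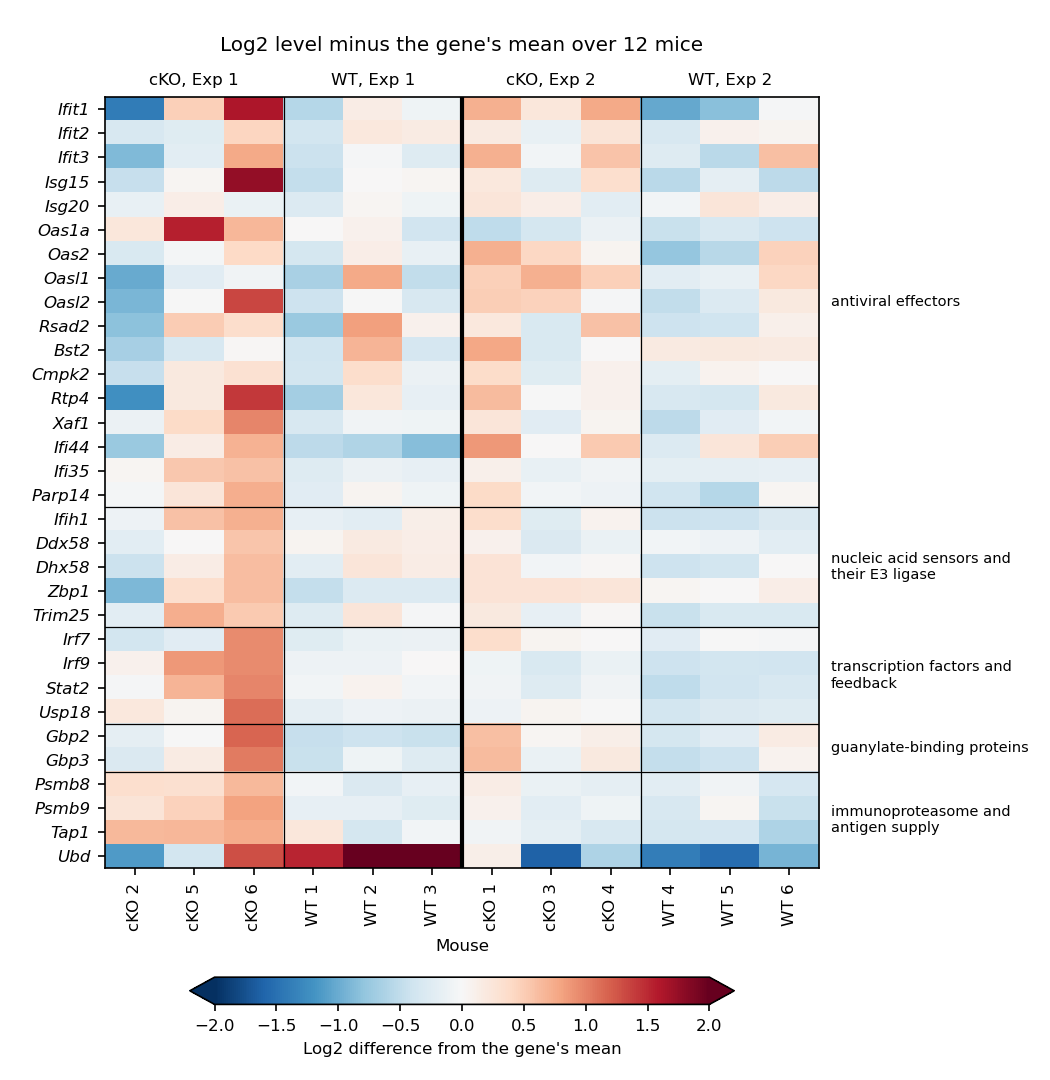
Each row is 1 of the 32 tested members, grouped by role, and each column 1 mouse. The colour gives the log2 level minus the gene's mean over the 12 mice, and colours end at 2 in either direction. The column of cKO 6 is the reddest in most rows, that of cKO 2 is pale or blue in most rows outside the bottom group, and Ubd (bottom row) is highest in the old WT mice.

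The old cKO mice differed widely among themselves. The mean over the 32 members was -0.43 in cKO 2, 0.18 in cKO 5 and 0.70 in cKO 6, against -0.32, 0.04 and -0.14 in WT mice 1, 2 and 3. In the young mice it was 0.23, -0.17 and 0.01 in cKO 1, 3 and 4, against -0.45, -0.33 and -0.13 in WT 4, 5 and 6. Thus cKO 6 was above every other mouse and cKO 2 was within the range of the WT mice. Among the 3 old cKO mice, cKO 6 was highest for 28 of 32 members and cKO 2 lowest for 30. Over all 12 mice, cKO 6 was highest for 22 members and cKO 2 lowest for 11.

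The result in Exp 1 depended on these mice. Without cKO 6, 17 of 32 members were positive in Exp 1 with a median of 0.08. Without cKO 2, 29 were positive with a median of 0.73, and Irf9 was called (0.97, adjusted p = 0.0165 in limma). Without cKO 2 the averaged comparison called 3 members, Irf9 (0.59, adjusted p = 0.0141), Stat2 (0.55, adjusted p = 0.039) and Zbp1 (0.51, adjusted p = 0.0428). Over the alternatives, 4 to 499 of all genes were called in the averaged comparison, against 68 with all mice. In Exp 1 the range was 1 to 1318, against 19. Whether the calls without cKO 2 are particular to the members cannot be told from these counts.

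The members that cut and transport peptides gave the smallest p-values in the averaged genotype comparison. Tap1 is a subunit of the transporter that moves peptides into the endoplasmic reticulum. Its level was 0.81, 0.82 and 0.89 in the old cKO mice 2, 5 and 6, against 0.38, -0.19 and 0.10 in the old WT mice 1, 2 and 3. In Exp 2 it was 0.09, -0.04 and -0.16 in cKO 1, 3 and 4, against -0.20, -0.17 and -0.46 in WT 4, 5 and 6. The groups did not overlap in either experiment, though in Exp 2 only by a narrow gap between cKO 4 and WT 5. The 3 old cKO mice were the highest of all 12. The averaged difference was 0.49 ± 0.11 (SE), or 1.41-fold, with an adjusted p of 0.0938 in limma. It was 0.74 ± 0.15 in Exp 1 (1.67-fold, adjusted p = 0.142) and 0.24 ± 0.15 in Exp 2 (1.18-fold, adjusted p = 0.977).

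Psmb8 and Psmb9 encode catalytic subunits that take the places of Psmb5 and Psmb6 in the immunoproteasome. The level of Psmb8 was 2.10, 2.09 and 2.41 in old cKO mice, against 1.72, 1.47 and 1.60 in old WT mice. In young mice it was 1.92, 1.64 and 1.60 in cKO, against 1.55, 1.69 and 1.43 in WT. The old groups were apart and the young groups overlapped. Psmb8 differed by 0.60 ± 0.14 in Exp 1 (1.52-fold), by 0.16 ± 0.14 in Exp 2 and by 0.38 ± 0.10 on average (adjusted p = 0.154).

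Psmb9 was likewise apart in the old mice, at 2.43, 2.63 and 2.98 in cKO, against 2.01, 2.01 and 1.93 in WT. The young mice had 2.26, 1.97 and 2.09 in cKO, against 1.85, 2.21 and 1.73 in WT, and overlapped. Its difference was 0.70 ± 0.17 in Exp 1 (1.63-fold) and 0.17 ± 0.17 in Exp 2, and 0.44 ± 0.12 on average (adjusted p = 0.174). These 3 genes were higher in all 3 old cKO mice, cKO 2 included, although cKO 2 was low for most other members. The difference between the experiments in the genotype difference was 0.50 ± 0.21 for Tap1, 0.44 ± 0.20 for Psmb8 and 0.53 ± 0.24 for Psmb9, each with an adjusted p of 1 in limma, so a larger difference in old mice was not shown.

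**Figure D2:**
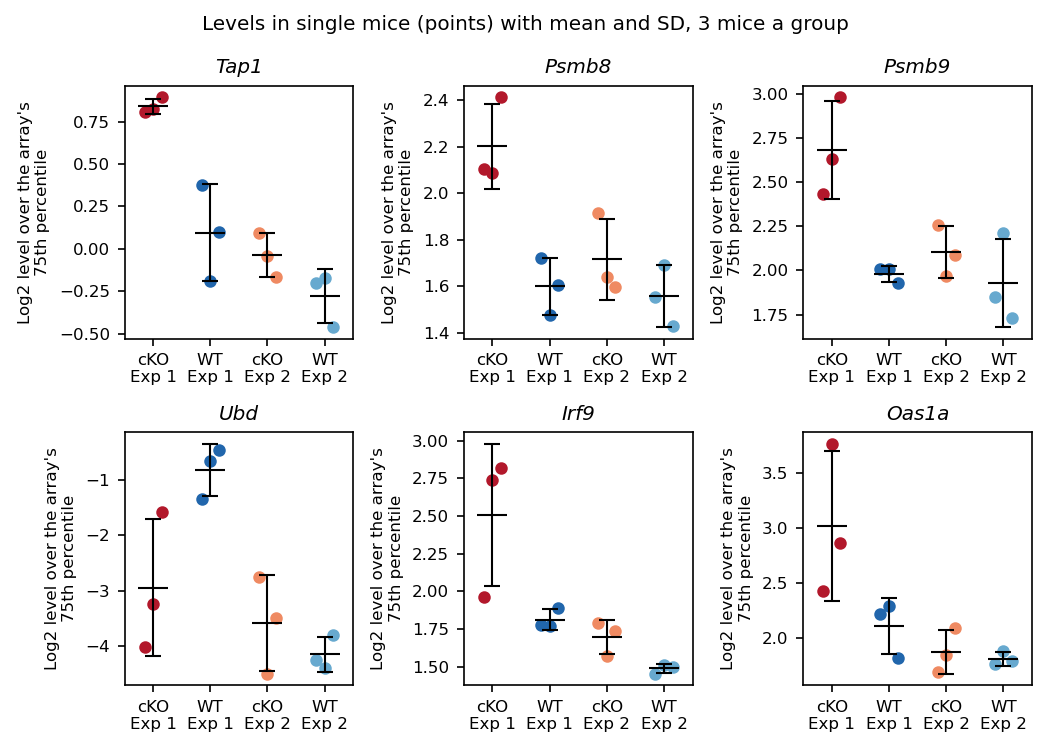
Each panel shows 1 gene, with 1 point a mouse, the mean as a long bar and the SD as whiskers, for 3 mice in each of 4 groups; the vertical axis is the log2 level over the 75th percentile of the array. The old cKO mice lie above the old WT mice for Tap1, Psmb8, Psmb9, Irf9 and Oas1a and below them for Ubd.

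Tap1 and Psmb9 lie head to head, so their start sites face away from each other across 1 shared promoter. In the RefSeq windows of build GRCm38.p6, which run 250 bases before to 50 bases after a start, the starts are 226 bases apart and the windows share 275 bases. The Tap1 window is shown because both genes in it were higher in the same old cKO mice. Capitals mark the transcribed bases, those of Psmb9 (read from the other strand) on the left and those of Tap1 on the right.
Tap1 and Psmb9 (chr17:34187306-34187605, plus strand): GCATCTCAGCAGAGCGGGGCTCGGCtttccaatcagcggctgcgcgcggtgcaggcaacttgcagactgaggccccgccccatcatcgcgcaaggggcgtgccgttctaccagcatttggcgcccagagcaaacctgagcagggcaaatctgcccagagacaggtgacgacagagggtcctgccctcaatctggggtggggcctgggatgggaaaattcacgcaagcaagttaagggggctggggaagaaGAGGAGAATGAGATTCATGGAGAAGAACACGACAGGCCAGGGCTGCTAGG
No ISRE core and no GAS, as spelled out further on, was found in this window. Psmb8 had a GAS whose first base lies 97 bases before its start, shown with the GAS in capitals.
Psmb8 (chr17:34198083-34198121, plus strand): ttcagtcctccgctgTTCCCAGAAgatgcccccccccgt

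Of 14 subunits of the core proteasome, 0 had a positive averaged difference and 0 were called; the differences lay between -0.22 and -0.08, with a median of -0.15. Under 4 other scalings all 14 stayed negative in the averaged comparison, with medians between -0.23 and -0.12. Psmb5, the subunit that Psmb8 replaces, averaged 6.80 ± 0.14 in cKO skin and 6.98 ± 0.19 in WT skin, a difference of -0.18 ± 0.11 (SE; adjusted p = 0.528). Psmb6, replaced by Psmb9, differed by -0.17 ± 0.10 (adjusted p = 0.52).

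The remaining catalytic subunit of the immunoproteasome, Psmb10, is not among the 35 and differed by 0.01 ± 0.12 on average and by 0.04 ± 0.17 in Exp 1. For the mean of Psmb8 and Psmb9 less that of the 14 constitutive subunits, each centred over the 12 mice, the old cKO mice lay between 0.35 and 0.70 and the old WT mice between -0.40 and 0.01. Young cKO mice lay between -0.18 and 0.22 and young WT mice between -0.40 and -0.28. The genotypes did not overlap in either experiment. That contrast was put together after the values were seen and was not tested.

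**Figure D3:**
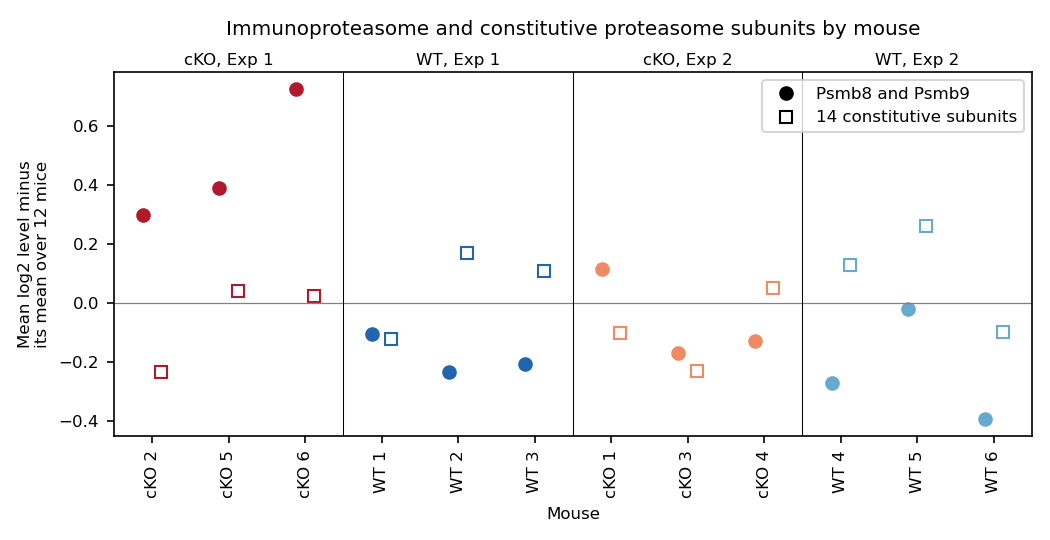
Filled circles are the mean log2 level of Psmb8 and Psmb9 and open squares that of 14 constitutive proteasome subunits, each minus its own mean over the 12 mice (vertical axis), for single mice (horizontal axis). The circles of the 3 old cKO mice, between 0.30 and 0.73, stand above those of all other mice, while the squares of the 4 groups overlap.

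Ubd (FAT10), a ubiquitin-like modifier that targets proteins to the proteasome and is induced by interferon gamma and TNF, ran against the other 3 genes of this role. It had levels of -4.02, -3.24 and -1.59 in old cKO mice, against -1.35, -0.66 and -0.46 in old WT mice. The young cKO mice had -2.76, -4.50 and -3.50, against -4.25, -4.40 and -3.80 in young WT mice. The old WT mice were thus the 3 highest of 12, and every old cKO mouse lay below them. The genotype difference was -2.13 ± 0.59 in Exp 1 (4.37-fold lower, adjusted p = 0.252) and 0.57 ± 0.59 in Exp 2 (adjusted p = 0.977). Their difference was -2.69 ± 0.83 with an adjusted p of 1.

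Between the experiments, Ubd was higher in old than in young WT skin by 3.33 ± 0.59 (10.1-fold, adjusted p = 0.0393). It was the 1 member called in that comparison, where 0.371% of all genes were called higher. In cKO skin Ubd differed by 0.64 ± 0.59 between old and young mice (adjusted p = 0.516). The call in WT ended without WT 1 (adjusted p = 0.0936), WT 2 (0.106), WT 3 (0.103), WT 4 (0.152), WT 6 (0.0505) or cKO 4 (0.0658), and the difference was 1.87 after another background correction (adjusted p = 0.0215). It was 3.85 on slide 1, with 1 young WT mouse, and 2.68 on slide 2, with 1 old WT mouse.

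Of the transcription factors and their feedback, all 4 members had positive differences in both experiments, and in Exp 2 the genotypes did not overlap for any of the 4. Irf9 is the DNA-binding subunit of the interferon-activated Stat complex. Its level was 1.96, 2.74 and 2.82 in old cKO mice, against 1.78, 1.77 and 1.89 in old WT mice. The young mice had 1.79, 1.57 and 1.74 in cKO, against 1.45, 1.51 and 1.50 in WT. The groups were apart in both experiments. Irf9 differed by 0.69 ± 0.20 in Exp 1 (1.62-fold) and 0.21 ± 0.20 in Exp 2, and by 0.45 ± 0.14 on average (adjusted p = 0.244).

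Stat2, its partner in that complex, had 1.38, 2.08 and 2.37 in old cKO mice, against 1.34, 1.46 and 1.35 in old WT mice. In Exp 2 it had 1.32, 1.14 and 1.33 in cKO, against 0.89, 1.02 and 1.07 in WT. The young groups were apart, and in the old mice cKO 2 lay among the WT values. The averaged difference was 0.41 ± 0.15 (1.33-fold, adjusted p = 0.307).

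Usp18 removes Isg15 from proteins and damps signalling at the receptor. It had -0.04, -0.19 and 0.87 in old cKO mice and -0.35, -0.20 and -0.25 in young ones, against -0.43, -0.36 and -0.37 in old and -0.61, -0.54 and -0.51 in young WT mice. Every cKO mouse lay above every WT mouse, though cKO 1 by a narrow gap. Usp18 differed by 0.44 ± 0.16 on average (1.36-fold, adjusted p = 0.307). Irf7, which amplifies interferon production, differed by 0.25 ± 0.20 (adjusted p = 0.635), and its old cKO values spread from -1.79 in cKO 2 to -0.49 in cKO 6.

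All 5 members that detect nucleic acids, or help those that do, had averaged differences above 0, with a median of 0.28. Ifih1 (MDA5) detects long double-stranded RNA. Its level was 0.19, 0.88 and 1.01 in old cKO mice, against 0.13, 0.08 and 0.41 in old WT mice. In Exp 2 it was 0.64, 0.04 and 0.36 in cKO, against -0.15, -0.12 and -0.01 in WT. The young groups were apart and the old ones overlapped through cKO 2 and WT 3. The averaged difference was 0.46 ± 0.16 (1.38-fold, adjusted p = 0.28).

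Trim25, the ubiquitin ligase that activates RIG-I, differed by 0.37 ± 0.16 (adjusted p = 0.402). Zbp1, a sensor of Z-form nucleic acid that can start necroptosis, differed by 0.28 ± 0.22, and Dhx58 (LGP2), a regulator of the other RNA sensors, by 0.20 ± 0.17. Ddx58 (RIG-I), which detects short RNA with a 5′ triphosphate, had a difference of 0.00 ± 0.13.

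Among the 17 tested antiviral effectors, 16 averaged differences were positive, with a median of 0.36 and a range from -0.16 (Bst2) to 0.80 (Ifit1). In Exp 1, 13 were positive with a median of 0.33. That count was 8 with the muscle covariate (median -0.03) and 6 without cKO 6 (median -0.09). In Exp 2, 15 were positive with a median of 0.39, and 14 with the muscle covariate (median 0.16). Ifi35, a partner of the transcription modulator Nmi, had the smallest p of this role. It had 0.97, 1.48 and 1.52 in old cKO mice and 1.04, 0.79 and 0.87 in young ones, against 0.68, 0.82 and 0.78 in old and 0.74, 0.76 and 0.77 in young WT mice. The WT mice were alike, within 0.13, and all 6 cKO mice but 1 stood above the highest of them. That exception was cKO 3, which lay above all WT mice but WT 2. Ifi35 differed by 0.35 ± 0.10 on average (1.28-fold, adjusted p = 0.229).

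Oas1a synthesises 2′-5′ oligoadenylate, which activates the nuclease RNase L. Its level was 2.43, 3.77 and 2.86 in old cKO mice, against 2.22, 2.29 and 1.81 in old WT mice. Young mice had 1.69, 1.85 and 2.09 in cKO, against 1.76, 1.88 and 1.79 in WT. The old groups were apart and the young groups overlapped. The difference was 0.91 ± 0.29 in Exp 1 (1.88-fold, adjusted p = 0.293) and 0.06 ± 0.29 in Exp 2.

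Oas2, of the same enzyme family, showed the smallest p of the members in Exp 2. It had 0.32, 0.02 and -0.34 in young cKO mice, against -1.16, -0.94 and 0.08 in young WT mice. In Exp 1 it had -0.69, -0.43 and 0.00 in cKO, against -0.74, -0.26 and -0.54 in WT. Both pairs of groups overlapped, in the young mice through WT 6. The difference was 0.67 ± 0.32 in Exp 2 and 0.14 ± 0.32 in Exp 1.

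Ifit1 binds viral RNA that lacks the host cap. In young mice it had -2.33, -2.81 and -2.28 in cKO, against -4.06, -3.87 and -3.05 in WT, and these groups were apart. Old mice had -4.44, -2.55 and -1.41 in cKO, against -3.60, -2.88 and -3.12 in WT, so that the old cKO mice held both the lowest and the highest value of the 12. Ifit1 differed by 1.19 ± 0.61 in Exp 2 (2.28-fold, adjusted p = 0.977) and by 0.40 ± 0.61 in Exp 1.

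Parp14, an ADP-ribosyltransferase, had 0.70, 0.99 and 1.47 in old and 1.12, 0.69 and 0.64 in young cKO mice. It had 0.51, 0.80 and 0.66 in old and 0.35, 0.18 and 0.78 in young WT mice. Both pairs overlapped, although 2 of 3 cKO mice of Exp 1 were above all WT mice. The averaged difference was 0.39 ± 0.16 (1.31-fold, adjusted p = 0.37), nearly equal in the 2 experiments (0.40 and 0.39).

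Isg15, a ubiquitin-like protein joined to newly made proteins, ranged from 2.17 to 4.39 in cKO mice, with a median of 2.76, and from 2.09 to 2.67 in WT mice, with a median of 2.30. Only cKO 6 stood far out, and the difference was 0.55 ± 0.33 (adjusted p = 0.52). Of the other effectors, Ifi44 (0.50 ± 0.25), Oasl2 (0.44 ± 0.32), Xaf1 (0.43 ± 0.18), Rtp4 (0.36 ± 0.38) and Ifit3 (0.30 ± 0.29) had averaged differences of 0.30 or more. Rsad2 (viperin), Oasl1, Cmpk2, Ifit2 and Isg20 lay between 0.00 and 0.18. Oasl1, which represses translation of Irf7, had differences of opposite sign in the experiments, at -0.30 ± 0.37 in Exp 1 and 0.54 ± 0.37 in Exp 2, where the young groups were apart.

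The guanylate-binding proteins, GTPases that attack the compartments of intracellular pathogens, had the largest median of any role, 0.56 over 2 genes. Gbp2 was 0.30, 0.47 and 1.65 in old and 1.08, 0.52 and 0.60 in young cKO mice. It was 0.03, 0.08 and 0.04 in old and 0.13, 0.25 and 0.65 in young WT mice. The old groups were apart and the young groups overlapped through WT 6. Gbp2 differed by 0.57 ± 0.22 (1.49-fold, adjusted p = 0.344) and Gbp3 by 0.54 ± 0.22 (1.45-fold, adjusted p = 0.377).

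**Figure D4:**
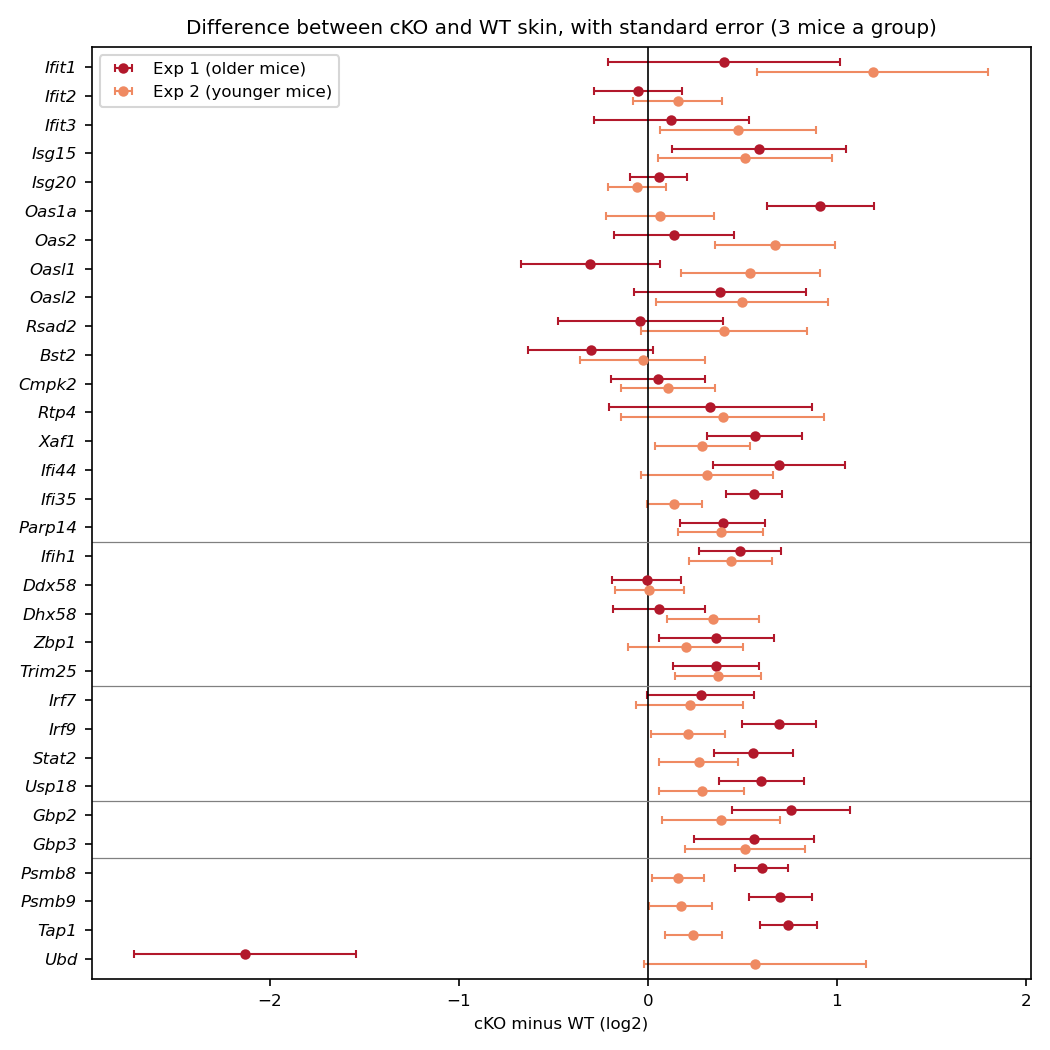
Points are cKO minus WT differences on the log2 scale (horizontal axis) for each tested member, dark red in Exp 1 and orange in Exp 2, with whiskers of 1 standard error from the limma fit (3 mice a group); grey lines part the roles. Most points lie right of 0 in both experiments, and Ubd in Exp 1 lies at -2.13.

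Old and young mice of the same genotype were also compared. Within cKO, 3 members were called, all higher in old than in young mice, against 5.38% of all genes called higher. The members called lower were 0, against 4.6% of all genes. They were Tap1 (0.88 ± 0.15, 1.84-fold, adjusted p = 0.0165), Irf9 (0.81 ± 0.20, 1.75-fold, adjusted p = 0.0333) and Oas1a (1.14 ± 0.29, 2.21-fold, adjusted p = 0.0359). The share of members, 9.38%, is not far from that background. At an unadjusted p under 0.05, 7 members were higher in old cKO mice, against 15.8% of all genes. In WT mice 2 were, Ubd and Tap1, against 8.93%. The median over the 32 members was 0.07 within cKO, with 18 positive, and 0.09 within WT, with 21 positive. By role, the median within cKO was 0.61 for the immunoproteasome and antigen supply, with 4 of 4 positive, and 0.58 for the transcription factors and feedback, with 3 of 4, while it was -0.14 for the antiviral effectors, with 5 of 17 positive.

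Markers of other cells were also called between old and young cKO skin, where 5.38% of all genes were called higher and 4.6% lower. Of 10 T and NK cell markers, 6 had positive differences (old minus young, range -0.27 to 1.64). Of these markers 4 were called higher in old cKO mice, among them Cd3g (1.64 ± 0.31, adjusted p = 0.0182). Of 8 markers of interfollicular keratinocytes 7 were positive and 5 were called higher, among them Lor (0.88 ± 0.18, adjusted p = 0.0228). Of 8 macrophage and monocyte markers 0 were positive and 6 were called lower, and of 20 skeletal muscle markers 0 were positive and 17 were called lower. Their part in the calls of Tap1, Irf9 and Oas1a was not tested. The muscle list as a covariate cannot test it, because its means were -2.87 to 0.20 in old and 4.23 to 5.46 in young cKO mice. With that covariate 0 members were called. The differences were then 0.83 for Tap1 (adjusted p = 0.216), 1.1 for Irf9 (adjusted p = 0.212) and 1.38 for Oas1a (adjusted p = 0.242). The members' median was 0.53.

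Each of these 3 calls was lost when some single mouse was left out. Tap1 lost its call without cKO 3 (adjusted p = 0.0614) or cKO 4 (0.0562). Irf9 lost it without WT 4 (0.0518), cKO 1 (0.0675), cKO 3 (0.111), cKO 4 (0.0863), cKO 5 (0.0868) or cKO 6 (0.0565). Oas1a lost it without WT 1 (0.0502), WT 4 (0.0545), cKO 1 (0.0973), cKO 3 (0.108), cKO 4 (0.077) or cKO 5 (0.0536). On slide 1, where 2 old cKO mice met 1 young one, the differences were 0.76 for Tap1, 0.60 for Irf9 and 0.95 for Oas1a. On slide 2, where they are cKO 5 minus cKO 4 alone, they were 0.98 for Tap1, 1.00 for Irf9 and 1.68 for Oas1a. A second Oas1a probe gave 0.01 (adjusted p = 0.985), and the mean of both probes 0.58 (adjusted p = 0.166).

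Several members had a second probe. In the comparison of genotypes, the second probes gave averaged differences of 0.59 for Oas1a, 0.48 for Isg15, 0.58 for Zbp1 and 0.61 for Ifih1, on the side of the probe used, the last with a probe above background on 3 arrays. For Xaf1 the second probe gave -0.60, against 0.43 for the one used, and it was above background on 9 arrays. The second probes of Cmpk2 (-0.07), Isg20 (-0.03) and Ddx58 (0.16) stayed near 0. Oas1a, the Ifit genes and the guanylate-binding proteins have close relatives, and their probes may read more than 1 transcript.

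Short motifs were looked for in the promoters of the members, as RefSeq windows of GRCm38.p6. A window was held for 27 members; Dhx58, Mx1, Mx2, Oas2, Parp14, Rtp4, Usp18 and Zbp1 had none. The ISRE core was spelled GAAANNGAAA and the GAS TTCNNNGAA, on either strand. An ISRE core stood in the windows of 12 of the 27 members, and in 37.5% of their 32 windows, against 3.44% of all 32851 windows. A GAS stood in those of 6 members, and in 18.8% of their windows, against 8.3% of all windows. Bst2 and Oas1a held both motifs, which overlapped in Bst2. Such matches describe letters only and name no bound factor.

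From the members whose levels are given above and whose windows hold the ISRE core, 5 are shown for comparison of their sites, with the core in capitals and 20 bases on either side, or fewer at the end of a window. The core of Ifih1 lies after its start, and those of the other 4 before theirs.
Isg15 (chr4:156200855-156200916, minus strand): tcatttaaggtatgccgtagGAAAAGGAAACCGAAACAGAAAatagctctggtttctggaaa
Ifit1 (chr19:34640765-34640833, plus strand): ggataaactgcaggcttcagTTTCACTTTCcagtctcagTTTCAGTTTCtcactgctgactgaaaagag
Oas1a (chr5:120907510-120907565, minus strand): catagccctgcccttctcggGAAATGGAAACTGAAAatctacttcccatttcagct
Stat2 (chr10:128270256-128270305, plus strand): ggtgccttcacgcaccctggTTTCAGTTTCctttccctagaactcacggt
Ifih1 (chr2:62646206-62646243, minus strand): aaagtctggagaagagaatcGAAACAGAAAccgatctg
Isg15 held 3 overlapping cores and Oas1a 2, the nearest to the start beginning 66 and 14 bases before it. Ifit1 held 2 separate cores and Stat2 had 1, beginning 222 bases before its start. The windows of Irf9, Psmb9, Tap1 and Ubd held neither motif. None of the 5 members with the smallest p-values in the averaged comparison (Tap1, Psmb8, Psmb9, Ifi35 and Irf9) held an ISRE core, and Psmb8 and Ifi35 held a GAS. Those 5 were picked by p in these same data, and the windows of Tap1 and Psmb9 overlap. Irf7, Oasl1, Oasl2 and Ifi44, among others, also held no ISRE core, so its absence does not set the 5 apart.

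Lists of related genes were set beside the members. Of 16 other genes of MHC class I presentation, 14 averaged differences were positive, with a median of 0.23 and 0 called. Tap2, the partner of Tap1, differed by 0.35 ± 0.08 (adjusted p = 0.0982), H2-Q7 by 0.32 ± 0.10, H2-K1 by 0.32 ± 0.11 and the peptide-loading factor Tapbp by 0.20 ± 0.07. In Exp 1 the median of these 16 was 0.48 with 14 positive, and in Exp 2 it was -0.02 with 5 positive; the count in Exp 2 was 14 in the deposited value table and 2 after median scaling. Within cKO, 6 of the 16 were called higher in old than in young mice, against 5.38% of all genes. They were led by Nlrc5, the transactivator of MHC class I genes (1.49 ± 0.22, adjusted p = 0.0112), and Tap2 (0.68 ± 0.11, adjusted p = 0.0144).

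Of 37 other interferon-induced genes, 31 averaged differences were positive, with a median of 0.17 and 0 called. Cxcl10, a chemokine for activated T cells, differed by 0.96 ± 0.27 (adjusted p = 0.192), Gbp6 by 0.93 ± 0.27, Irgm2 by 0.71 ± 0.23 and Gbp7 by 0.54 ± 0.18. Of 6 tested interferon genes 3 were positive, with a median of -0.11. The genes of interferons beta and gamma were below the filter. Among 19 receptor and signalling genes 12 were positive, with a median of 0.06; Irf8 differed by -0.47 ± 0.15 (adjusted p = 0.265), Irf1 by 0.39 ± 0.14 and the receptor gene Ifnar1 by -0.26 ± 0.11. Among 16 genes of the sensing pathway 11 were positive, with a median of 0.09. None of these lists held a gene called for genotype.

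The mice also differed in markers of other cells. Skeletal muscle markers, 20 of 20 with positive averaged differences (median 2.14, 0 called), had list means between -2.87 and 5.46 in cKO mice and between -3.77 and 5.29 in WT mice. In Exp 1 the mean was -2.87, 0.20 and 0.18 in cKO 2, 5 and 6, against -2.83, -3.77 and -3.74 in WT 1, 2 and 3. The members' mean was -0.43, 0.18 and 0.70 in cKO 2, 5 and 6, against -0.32, 0.04 and -0.14 in WT 1, 2 and 3. A link between the muscle mean and the members' mean was not tested beyond a covariate. With the muscle mean as a covariate the members' averaged median was 0.22, with 25 positive. T and NK cell markers were lower in cKO skin for 7 of 10 genes (median -0.44, 0 called), with list means between -1.39 and -0.25 in cKO and between -0.78 and -0.34 in WT mice. Of 6 genes listed as markers of plasmacytoid dendritic cells (Siglech, Ccr9, Tcf4, Ly6d, Pacsin1 and Klk1), 5 were positive (median 0.21). Their list means lay between 1.95 and 2.58 in cKO and between 1.76 and 2.26 in WT mice. Between old and young cKO skin these 6 genes moved in opposite directions, from -2.7 to 1.3, so their mean may not read 1 cell type. Among cKO mice the mean of these 6 genes was lowest in cKO 6 (1.95) and highest in cKO 5 (2.58). Its part in the members' levels was not tested.

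Interfollicular keratinocyte markers were positive for 7 of 8 on average (median 0.05). In Exp 1 they were positive for 8 (median 0.36) and in Exp 2 for 2 (median -0.22). Adipocyte markers were positive for 2 of 6 (median -0.44), with a list mean of 0.35 in cKO 5, against 2.76 to 4.11 in WT mice. Macrophage and monocyte markers were positive for 1 of 8 (median -0.20), and hair follicle markers for 0 of 8 (median -0.45). Hair follicle means reached from 2.77, in cKO 5, to 5.64 in cKO mice and from 5.07 to 5.93 in WT mice. The part of these cell types in the members' levels was not tested, other than through the muscle covariate.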

How the data were processed

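Each mouse gave 1 array, whose scanner file was written by Feature Extraction 11.5.1.1. The processed signal is an intensity with the background taken off, per the file headers, and flags of 0 or 1 mark outlier spots and spots well above background. The deposited value table holds log2 values; the submitters' processing notes name limma, with the steps not given in the sources used here, and the table served as an alternative only. Without outlier spots, the mean log2 processed signal of each probe was taken and the array's 75th percentile subtracted. Of 55681 probes 27509 were named through their RefSeq accession (table of GRCm38.p6). A probe was kept if at least 0.5 of its spots were well above background on 3 or more of 12 arrays, and the brightest kept probe stood for its gene. Genes were tested with limma 3.58.1 in R 4.3.3, as 4 group means and 6 contrasts, with Benjamini-Hochberg adjustment over 16183 genes, tested on simulated data first. The number of arrays limits the precision. Members with full values were the 8 with the smallest p in the averaged comparison and the 4 in each experiment, besides those called; the others described (Gbp2, Isg15 and single values) were chosen after their values were seen. The members and lists were chosen with earlier results of these data known. Alternatives were other background corrections, scalings, filters and probe rules, slide as a block, single slides, each mouse left out, a replicate block, a muscle covariate and the value table.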

Additional observations from a re-analysis of the deposited data

Results flagged for a closer look

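In 64 groups of 6 mice, 1 for each genotype and member, 4 held a mouse whose gap to the next was large against the range of the group; chance alone flags about 1 in 20 such groups. Isg15 was 4.39 in cKO 6, with the next cKO mouse at 2.97. Usp18 was 0.867 in cKO 6, with the next at -0.0443. Zbp1 was -1.65 in cKO 2, with the next at -0.513. Gbp2 was 0.65 in WT 6, with the next WT mouse at 0.254.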

How the results depend on the processing

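The members' averaged median (cKO minus WT) stayed positive under all 27 alternatives, between 0.223 and 0.5, with 24 to 31 members positive. No main value changed sign while called. In Exp 1 leaving out 1 mouse gave medians from 0.0827 to 0.732, and the counts called ranged from 0 to 1 in Exp 1 and from 0 to 3 in the averaged comparison. On slide 2 alone the averaged comparison passed the threshold for 1 member and Exp 1 for 2, but there Exp 1 is cKO 5 minus WT 1 (Oas1a 1.55, Ubd -1.89) with 1 residual degree of freedom, so these counts are no test of the groups. For old against young cKO skin, where 3 members were called, 5 were called under normexp, quantile normalization or a filter of all 12 arrays, 6 with a robust variance trend, 1 with the groups fitted alone, and 0 with slide as a block, within slide 1, with the muscle covariate or in the value table. The calls over all genes moved too, from 871 higher and 744 lower to 1083 and 803 under normexp. They were 1077 and 815 under quantile normalization, and 25 and 37 in the value table. The cKO 1 column of that table correlated least with its array (0.933, against 0.953 to 0.970 for the others), and without it the table called 4 members (Tap1, Irf9, Psmb8 and Psmb9), and Ubd in WT (adjusted p = 0.0316). Leaving out a mouse gave 0 to 6, with medians from -0.212 to 0.403. For old against young WT skin the 1 call became 0 under quantile normalization, no filter, slide as a block, within slide 1 (1 young WT mouse), the muscle covariate and the full value table, and 0 to 1 without a mouse. With the muscle covariate, whose values did not overlap between the experiments in either genotype, the medians were 0.493 (WT) and 0.532 (cKO). The cause was not tested. Mouse numbers do not pair animals, because cKO 1, 3, 5 and 6 were not in the same experiment as WT 1, 3, 5 and 6. The correlations between mice of the same number lay between -0.26 and 0.072 (0 of 6 best with their own number), which is no test of pairing. A replicate block by number therefore joins mice of different experiments. With the replicate block the medians were -0.0521 in Exp 1, 0.684 in Exp 2, -0.857 for their difference and 0.513 between experiments in WT, and 0 members were called between experiments. Median scaling shifted the median of all genes by -0.141 in Exp 2 and between experiments in WT, and by 0.113 in the difference between experiments. The number of all genes called ranged from 4 to 499 in the averaged comparison, 1 to 1318 in Exp 1, 1 to 79 in Exp 2, 0 to 392 for their difference, 0 to 962 between experiments in WT and 0 to 2988 in cKO.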

Other observations

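Between old and young cKO skin, 5.38% of all genes were called higher and 4.6% lower, and some interferon-related genes outside the list were among them. Of 37 other interferon-induced genes 1 was called higher and 2 lower. Of 16 genes of the sensing pathway 2 were called lower, and of 19 receptor and signalling genes 1 was called higher. Gbp9, a guanylate-binding protein, fell by 2.33 ± 0.49 on the log2 scale (SE; adjusted p = 0.0236) in old against young cKO mice, and Ifi27l2a, an interferon-induced mitochondrial protein, fell by 1.81 ± 0.44 (adjusted p = 0.033). Tlr7, an endosomal sensor of single-stranded RNA, fell by 1.14 ± 0.29 (adjusted p = 0.0388) and Ifi204, a DNA sensor of the PYHIN family, by 0.80 ± 0.21 (adjusted p = 0.0404). Cd274 (PD-L1), which restrains T cells, rose by 0.99 ± 0.27 (adjusted p = 0.0445), and Ifnlr1, the receptor for lambda interferons, by 0.65 ± 0.15 (adjusted p = 0.0293). In WT mice the same comparison (old minus young) gave -1.76 ± 0.49 for Gbp9, -0.66 ± 0.44 for Ifi27l2a, -0.78 ± 0.29 for Tlr7, -0.73 ± 0.21 for Ifi204, 0.32 ± 0.27 for Cd274 and 0.58 ± 0.15 for Ifnlr1, none of them called (adjusted p from 0.0824 to 0.58 in limma).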
